A study of Mus musculus with 96 samples.

Results

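The genes described are the mouse splicing factor and hnRNP genes: every row of the deposited table whose name begins with Hnrnp, Hnrp, Sfrs, Srsf, Snrp, Sf3a or Sf3b, without Snrpn. The rule found 59 of 21711 gene rows, and 58 of the 59 had at least 100 reads over both cell types, the minimum for a ratio. The exception was Srsf13b, with 0 reads in ES cells and 22 in embryonic fibroblasts. The study used single-cell tagged reverse transcription, which reads the 5′ ends of transcripts while keeping the strand, on 1 plate of 96 wells. Of these, 48 held mouse ES (embryonic stem) cells from the line R1, 44 held mouse embryonic fibroblasts (MEFs) grown in serum, and 4 were negative controls. No treatment or genotype difference separates the groups in the labels, and the labels give R1 as the source line of the MEFs as well, although the growth protocol describes them as a separate culture.

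Pre-mRNA splicing is carried out by the spliceosome, which is built from small nuclear ribonucleoproteins (snRNPs): short RNAs, most of them carrying a ring of Sm proteins, and proteins particular to each snRNP. U1 recognises the 5′ splice site, and U2, with the SF3a and SF3b complexes, recognises the branch point. SR proteins and heterogeneous nuclear ribonucleoproteins (hnRNPs) bind exons and introns and shift which splice sites are used, often in opposite directions.

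Each cell type came from 1 culture as far as the labels say, so the cells are not replicates of a condition, and no test between ES cells and MEFs was made. The reads of all cells of 1 type were added up and scaled to a total of 1000000 gene reads (CPM), with exact 95% Poisson intervals that cover counting error only. The labels describe no molecular identifiers, so amplified copies may count as separate reads. The spread given with each log2 ratio is the SD of the same ratio in the 8 plate rows, which hold both types but no second culture. ES cells filled the left of the plate and MEFs the right, so cell type and plate side cannot be told apart. Wells needed 10000 gene reads, which kept 45 ES cells and 44 MEFs. Kept ES wells had 13576 to 703423 gene reads and kept MEF wells 63938 to 1883709, and the median well differed 5.28-fold. The ES markers Pou5f1, Sox2, Zfp42, Dppa5a, Tdh and Nanog took 0.0221% to 2.01% of gene reads in ES wells and 0% to 0.0184% in MEF wells. The MEF markers Col1a1, Col1a2, Fn1, Thy1, Acta2 and Vim took 0.0212% to 2.54% in ES wells and 0.591% to 6.44% in MEF wells. ES cell replicates 4 and 7 had profiles nearer the MEF mean. In kept ES replicates 2, 7, 8 and 30, as in the negative controls, spike-in reads outnumbered gene reads. In 12 of the 45 kept ES wells, these 5 included, the MEF markers took a larger share than the ES markers, as in 3 of the 4 negative controls. The members' median log2 ratio relative to the median gene, 1.09 with all wells, was 1.09 without replicates 4 and 7, 1.08 without the 4 spike-in-rich wells and 1.12 without the 12. Without the 12, 12 members in place of 11 were higher in ES cells by 2-fold or more in CPM and 25 in place of 19 in MEFs.

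Some rows carry retired names. By RefSeq symbol, synonym and chromosome, 13 member rows are genes now named otherwise, among them Srsf8 (now Sfswap), Srsf13a (Srsf10), Srsf2ip (Scaf11), Srsf16 (Clasrp), Sfrs18 (Pnisr), Hnrpll (Hnrnpll) and Hnrpdl (Hnrnpdl). The row Srsf12 is Srek1, and the gene now called Srsf12 stands in the table as Srsf13b. The names below are those of the table.

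Promoter sequences were taken from RefSeq (GRCm38.p6, from 250 bases before to 50 after each annotated start) for the 52 of 59 members with an entry. Sf3b5, Sfrs18, Hnrpll, Snrpd1, Sf3b4, Hnrnpul2 and Snrpb had none. Since the assay reads 5′ ends, these are the regions next to the annotated ends of the transcripts measured. The letters CCGGAAG, the core recognised by ETS factors, stood on either strand in 18 of 52 member promoters (34.6%), against 19.1% of the 7735 promoters of genes with 100 reads and 9.12% of all 27025. The following 30-base windows show the match in capitals for 3 snRNP genes, Hnrnpf and Srsf7, which stood high in ES cells, and for Srsf8, which did not, so that both directions can be compared. They were picked after the values were seen.
Snrpe: tccgggtcttgCTTCCGGaagtcgctttcc
Snrpg: tggcgacgcaaCCGGAAGcgtggctctggt
Snrpb2: ttggccgccctCTTCCGGcgcggggaagct
Hnrnpf: ggggctgcacaCCGGAAGtccctgtgcttc
Srsf7: gcaggagaccgCCGGAAGgccacaggttta
Srsf8: cgggtttcctaCCGGAAGttgcgtctcctc
These lie at chr1:133610259-133610288 (minus strand), chr6:86371384-86371413 (plus), chr2:143063030-143063059 (plus), chr6:117900279-117900308 (plus), chr17:80207505-80207534 (minus) and chr5:129501209-129501238 (plus). The Snrpe match in capitals lay 4 to 10 bases after the annotated start and the Srsf8 match 11 to 5 bases before it. The Snrpe and Snrpb2 promoters each held 2 matches, of which only the match furthest upstream is in capitals. In Snrpe the other match overlaps it. CCGGAAG was found in 10 of 27 promoters of members that stood 2-fold or more above the median gene, against 8 of the 24 other measured members, so the match did not separate them.

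Other promoter elements stood near their shares in measured genes. CCAAT, the CCAAT box, on either strand, stood in 23 of 52 member promoters (44.2%), against 39.4% of measured genes and 37.9% of all promoters. GGGCGG, the GC box, stood in 71.2%, against 67.9% and 35.9%. TATAAA, the TATA box, was an exception among measured genes, in 7 of 52 member promoters (13.5%), against 6.62% and 14.2%. The 100 bases before the start are printed for Hnrnpa1 and Srsf3, whose relative ratios were above 0, for Hnrnph2, below 0, and for Hnrnpa0, near 0, with matches of these 3 motifs on either strand in capitals.
Hnrnpa1: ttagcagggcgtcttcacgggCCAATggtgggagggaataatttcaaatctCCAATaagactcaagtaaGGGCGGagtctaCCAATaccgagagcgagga
Srsf3: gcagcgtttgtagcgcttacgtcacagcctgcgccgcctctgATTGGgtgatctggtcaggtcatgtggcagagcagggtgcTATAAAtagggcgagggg
Hnrnph2: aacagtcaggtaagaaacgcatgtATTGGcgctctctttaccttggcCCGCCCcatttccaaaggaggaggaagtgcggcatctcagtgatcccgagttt
Hnrnpa0: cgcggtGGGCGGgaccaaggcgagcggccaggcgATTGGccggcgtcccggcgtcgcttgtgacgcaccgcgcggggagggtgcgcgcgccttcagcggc
They lie at chr15:103240297-103240396 (plus strand), chr17:29032560-29032659 (plus), chrX:134601079-134601178 (plus) and chr13:58128557-58128656 (minus). Each of the 4 holds a CCAAT box, and Srsf3 has a TATAAA 18 to 13 bases before the start. Median GC content was 60.3% in member promoters, 61.7% in those of measured genes and 52.7% in all.

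As a group the members stood above the typical gene in ES cells. The median gene of the 11054 with 100 reads was lower in ES cells than in MEFs by CPM, at a log2 ratio of -1.54 (SD over plate rows 0.37). The members' median was -0.45 (SD 0.53, 8 plate rows), which is 1.09 above the median gene (SD 0.50, plate rows from 0.64 to 2.06). With 10 CPM added to both types, the difference from the median gene was 0.29. Relative to the median gene, 30 of 58 members were at least 2-fold above, where 33.4% of all genes were, and 5 were at least 2-fold below, where 35.1% of all genes were. In plain CPM, 11 members were higher in ES cells by 2-fold or more (13.3% of all genes) and 19 were higher in MEFs by as much (59.1% of all genes). The ratio was above the median gene in each of the 8 plate rows for 15 members (5.17% of all genes), and below it in each for 0 members (5.73% of all genes). The members were also the more abundant genes. Their median was 83.7 CPM in ES cells and 81.5 in MEFs, against 10.9 and 24.6 over the 11054 genes. The part of abundance in these differences was not tested. Under spike-in scaling, which measures reads per amount of added RNA, all 58 members were at least 2-fold lower in ES cells, and the median gene stood at -6.10. The relative ratio is therefore used below wherever a direction is stated, unless CPM is named, and CPM is given beside it. The shares of all genes for the relative 2-fold counts that follow are 33.4% above and 35.1% below. In these data fewer reads captured per cell and less RNA per cell cannot be told apart.

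**Figure D1:**
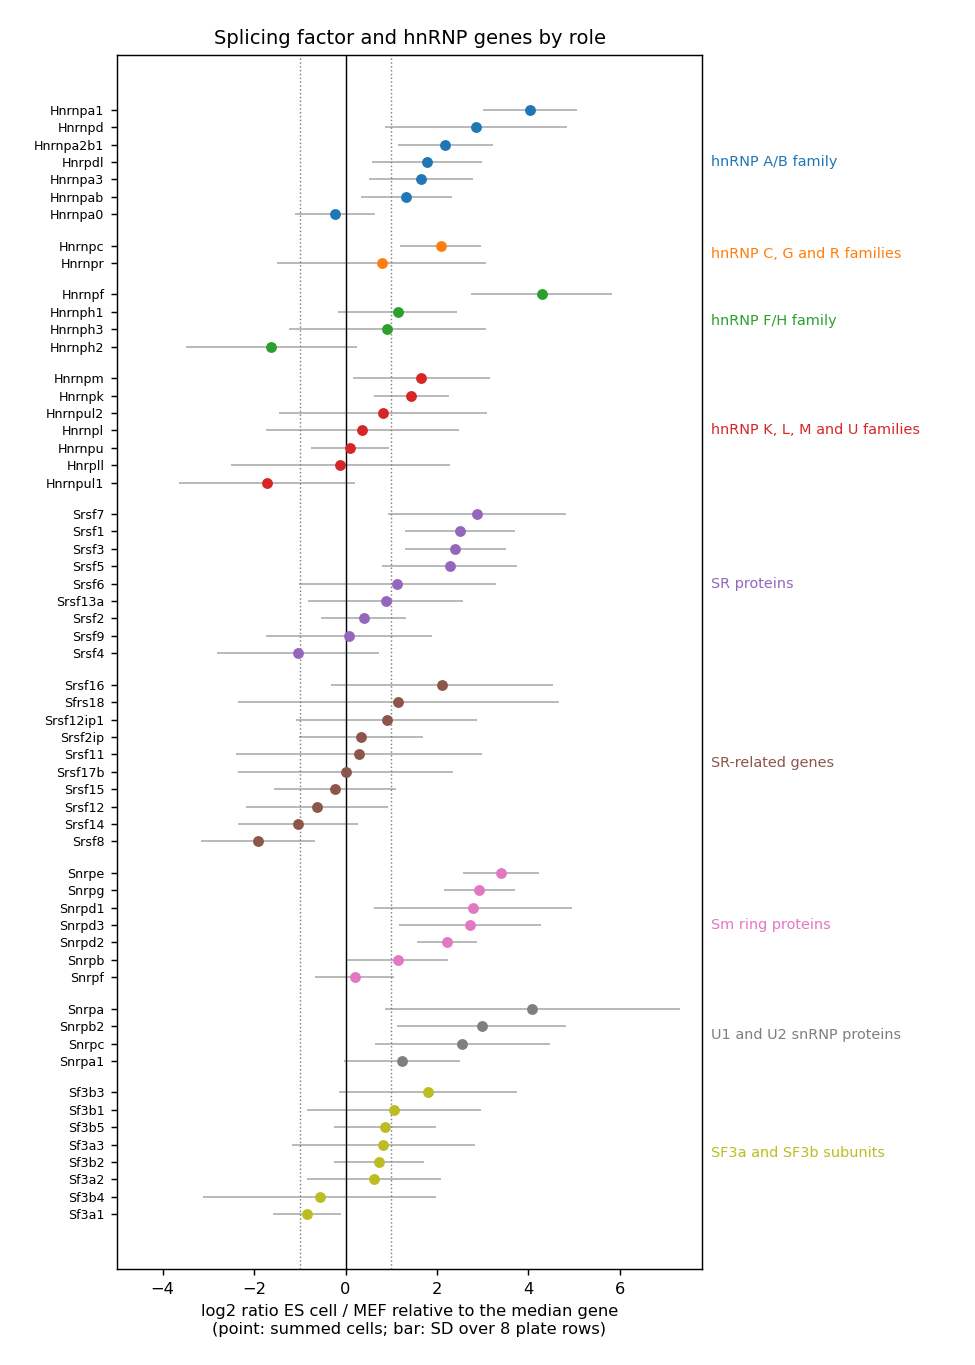
Log2 ratio of ES cell to MEF, relative to the median gene, for the 58 measured members grouped by role; points are summed cells, bars the SD over 8 plate rows, dotted lines 2-fold. The Sm ring and U1 and U2 snRNP genes lie to the right of 0, while SR-related genes lie on both sides.

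The members' share of all gene reads was 0.948% in ES cells (95% exact binomial interval 0.942% to 0.955%) and 0.602% in MEFs (0.599% to 0.604%). Per well it ran from 0.221% over a median of 0.754% to 2.64% in ES cells, and from 0.337% over 0.543% to 2.87% in MEFs. The wells of the types overlapped over most of that range. Both highest wells owed their place to 1 gene: Hnrnpd supplied 86.1% of the member reads of ES cell replicate 28, and Snrpa 75.7% of those of MEF replicate 83. With each cell thinned to 20000 gene reads, the median shares were 0.828% and 0.543%. Fewer different members were seen per ES cell, a median of 27 against 47 per MEF, or 22.5 against 31 after thinning, which left out 3 ES cells. In the negative controls 94 of 12527 gene reads fell on members, 0.750%.

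The Sm ring genes and the U1 and U2 snRNP protein genes stood highest, at median relative log2 ratios of 2.72 and 2.77. Their order reversed after thinning, at 1.78 and 1.65. The 7 Sm genes encode the ring that clasps the U1, U2, U4 and U5 RNAs, and 6 of them were above the median gene by 2-fold or more, with none below by as much. Their median relative log2 ratio was 2.72 (SD over plate rows 0.81). In CPM, 4 were higher in ES cells by 2-fold or more, and 1, Snrpf, was higher in MEFs by as much. Their median CPM log2 ratio of 1.18 was 0.24 with size factors by the median of ratios and -3.38 under spike-in scaling.

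Snrpe, which encodes the Sm protein E, had lowest, median and highest values of 0, 414 and 2663 CPM in 45 ES cells and 0, 246 and 622 CPM in 44 MEFs. The ES wells reached higher but overlapped the MEF wells. Summed, Snrpe had 829 CPM (810 to 848) in ES cells and 229 (224 to 234) in MEFs, 3.62-fold. Its relative log2 ratio was 3.40 (SD 0.83), and its CPM was higher in ES cells in 8 of 8 plate rows. Negative controls held 17 Snrpe reads, the most of any member, against 7227 in ES cells and 8044 in MEFs. The negative control wells gave 0, 1108 and 1930.5 CPM at the lowest, median and highest. Their median lay above those of both types, but it rests on only 12527 gene reads in all. By CPM, Snrpe ranked 3 among the members in ES cells and 7 in MEFs. Per 1000 bases of transcript it ranked 1 in both, with 1684 CPM in ES cells and 465 in MEFs, but in a 5′-end assay division by length lifts short genes such as Snrpe, of 492 bases.

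Snrpg, the Sm protein G, was detected in nearly every cell, in 44 of 45 ES wells and in 44 of 44 MEF wells. It had 0, 379 and 1576 CPM at the lowest, median and highest ES well, and 6.53, 181 and 517 CPM in MEFs. The ES median lay above the MEF median, and 50% of its ES reads came from 10 ES wells, where the median member needed 3. The sums were 462 CPM (448 to 477) and 177 (173 to 182), with a relative log2 ratio of 2.93 (SD 0.78) and a higher CPM in ES cells in 8 of 8 plate rows. Snrpg, of 393 bases, ranked 6 in ES cells and 10 in MEFs by CPM, and 2 in both types per 1000 bases, with 1177 and 451 CPM.

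The D proteins of the ring followed. Snrpd1 stood at 94.9 CPM in ES cells and at 40.1 CPM in MEFs, at a relative log2 ratio of 2.78 (SD 2.16). Snrpd2 had 197 and 123 CPM, at 2.21 (SD 0.65), or 1.24 with cells thinned to 20000 reads. Both stood above the median gene in 8 of 8 plate rows. Snrpb, a ring member with a close paralogue in Snrpn, differed: it stood at 90.9 CPM in ES cells and at 120 CPM in MEFs, at 1.14 (SD 1.10). Within the ring's reads Snrpb made up 4.75% in ES cells and 14.6% in MEFs, and Snrpe 43.3% and 27.9%. The plate rows of both overlapped between the types, from 2.19% to 12.4% against 8.17% to 25.4% for Snrpb, and from 25.9% to 52.3% against 20.7% to 47.5% for Snrpe. Snrpf made up 0.647% and 3.80%, and its plate rows did not overlap between the types (0% to 1.59% against 2.05% to 8.12%). The rows of the other ring genes overlapped. Overlap was not counted over all genes, and a higher share of a ring gene lowers the rest.

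All 4 members that encode U1 and U2 snRNP proteins were at least 2-fold above the median gene, with a median of 2.77 (SD 1.71). Snrnp70, another U1 snRNP protein gene, is not a member by its name. It had 9.75 CPM in ES cells and 33.4 CPM in MEFs, at -0.24 (SD 2.04), above the median gene in 3 of 8 plate rows. Snrpa, the U1 A protein, showed how few cells can carry a high value. Its wells ran over 0, 30.4 and 9036 CPM in ES cells and 0, 18.4 and 21694 CPM in MEFs. The medians were low and close, while single wells were very high in both types. ES cell replicate 33 held 39.1% of its ES reads, and MEF replicate 83 held 65.1% of its MEF reads. The sums, 1598 CPM in ES cells and 273 in MEFs, gave a relative log2 ratio of 4.09 (SD 3.23). It was 5.59 without MEF replicate 83, 5.67 without the highest well of each type, 1.62 from the mean of per-cell CPM and 1.48 after thinning. By the median of ratios, its CPM log2 ratio of 2.55 became -0.09. Snrpb2, the U2 B″ protein, had 182 and 67.1 CPM at 2.98 (SD 1.85). ES cell replicate 45 held 53.8% of its ES reads, and its relative ratio without the highest wells was 2.49. Under that setting the median gene was recomputed without each gene's highest wells and fell as well. The CPM log2 ratio of Snrpb2 fell from 1.44 to 0.41.

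Among the hnRNPs, the A/B family, RNA-binding proteins that often favour exon skipping, stood highest, with 6 of 7 genes above the median gene by 2-fold or more and a median of 1.78 (SD 1.15). Hnrnpa1, its best known member, had 0, 321 and 1524 CPM in ES wells and 0, 54.5 and 459 CPM in MEF wells. Most ES wells lay above the MEF median. The sums were 543 CPM (528 to 559) and 95.8 (92.6 to 99.1), 5.67-fold, at a relative log2 ratio of 4.04 (SD 1.02), higher in ES cells in 8 of 8 plate rows. Without the highest wells it was 4.55, because the median gene fell, while its CPM log2 ratio went from 2.50 to 2.47. After thinning the relative ratio was 3.43. Only 2.23% of the Hnrnpa1 reads mapped to a single place, so the row may count near-identical copies elsewhere in the genome, and its value is uncertain. The other members were mapped to a single place for all their reads, or nearly all, except Hnrnpa3 at 86.996%.

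Hnrnpa2b1, which binds many nuclear and cytoplasmic RNAs, was abundant in both types. Its wells gave 0, 327 and 1606 CPM in ES cells and 6.34, 304 and 1111 CPM in MEFs, nearly the same range. The sums of 552 and 354 CPM corresponded to a relative log2 ratio of 2.18 (SD 1.04). Hnrnpd (AUF1), which binds AU-rich elements, had 189 and 75.8 CPM, at 2.86 (SD 2.00). One ES well, replicate 28, reached 22746 CPM of Hnrnpd, and the mean of per-cell CPM gave 4.89.

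Hnrnpa0 stood lowest in the family. Its wells gave 0, 0 and 363 CPM in ES cells and 4.25, 138.5 and 422 CPM in MEFs, and it was detected in 20 of 45 ES wells and in 44 of 44 MEF wells. The median MEF lay above most ES cells. The sums were 45.5 CPM (41.2 to 50.2) and 156 (152 to 160), 3.42-fold higher in MEFs by CPM and close to the median gene at -0.23 (SD 0.87). Within the family's reads, Hnrnpa1 made up 30.4% in ES cells and 8.27% in MEFs, and Hnrnpa0 2.55% and 13.4%. The uncertain Hnrnpa1 count enters every share of this family. These shares need no scaling between wells, but they are tied, since a higher share of a gene lowers the rest. For both genes the 8 plate rows of ES cells did not overlap those of MEFs. They were 22.1% to 45.4% against 4.98% to 11.4% for Hnrnpa1, and 1.00% to 4.32% against 10.6% to 17.2% for Hnrnpa0. The rows of the other A/B genes overlapped, as did those of all SR protein, U1 and U2, and SF3 genes. Overlap was not counted over all genes. Hnrnpa2b1 kept a like share, 30.9% and 30.5%.

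**Figure D2:**
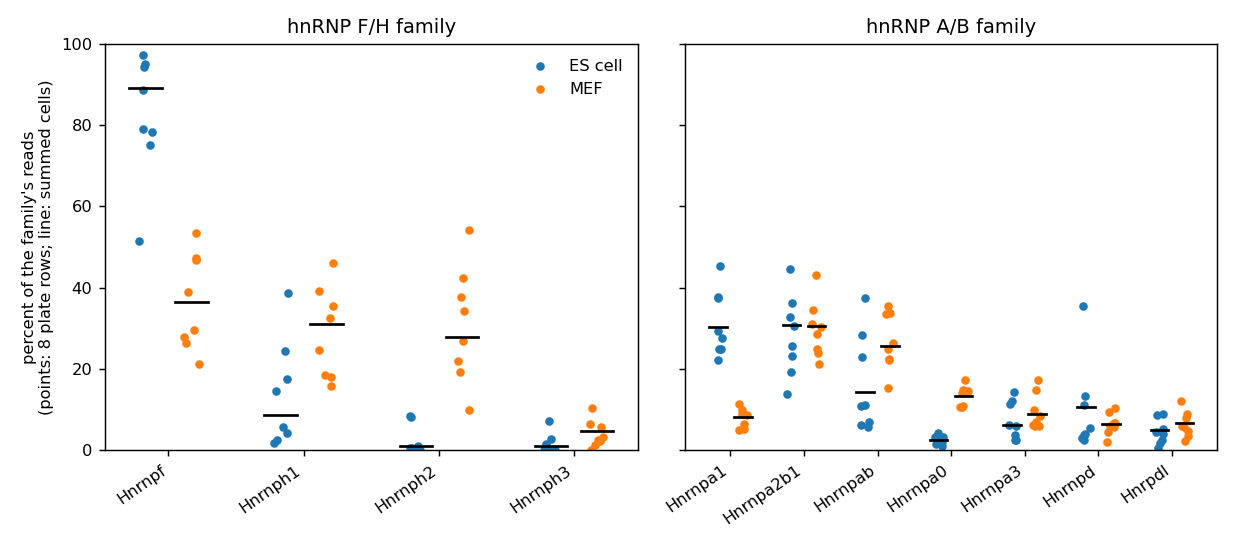
Percent of the reads of the hnRNP F/H family (left) and A/B family (right) taken by each gene, in ES cells and MEFs; points are 8 plate rows and lines the summed cells. Hnrnph2 and Hnrnpa0 are lower in every ES row than in any MEF row, Hnrnpa1 is higher, and the Hnrnpf rows overlap. Shares within a family are tied, and such separation was not counted over all genes. Only 2.23% of the Hnrnpa1 reads mapped to a single place, so the A/B shares are uncertain.

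The F/H family, which binds G-rich RNA, had genes on both sides. Hnrnpf had 0, 213 and 9379 CPM in ES wells and 0, 141 and 375 CPM in MEF wells. Its ES values were spread widely: 12 ES cells passed 1000 CPM, and 4 held 50% of all its ES reads, while no MEF passed 375 CPM. The sums were 1133 CPM (1111 to 1155) and 168 (164 to 172), 6.74-fold, at a relative log2 ratio of 4.29 (SD 1.54), and higher in ES cells in 8 of 8 plate rows. The relative ratio was 4.72 without the highest wells, where the CPM log2 ratio went from 2.75 to 2.64, and 4.13 after thinning.

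Hnrnph2, an X-linked close relative of Hnrnph1, gave 0, 0 and 97.9 CPM in ES wells and 0, 75.04 and 417 CPM in MEF wells. Detection was in 10 of 45 ES wells and in 38 of 44 MEF wells, or in 16.7% and 61.4% of cells after thinning. The sums of 14.3 CPM (11.9 to 17.1) and 128 (125 to 132) gave a relative log2 ratio of -1.62 (SD 1.87). Hnrnph2 was below the median gene in 7 of 8 plate rows, and its CPM was higher in MEFs in 8 of 8. Of the family's reads, Hnrnpf took 89.2% in ES cells (plate rows 51.6% to 97.2%) and 36.4% in MEFs (21.3% to 53.4%), with some overlap. Hnrnph2 took 1.13% (0% to 8.42%) and 27.8% (9.79% to 54.2%), with none. Hnrnph1 took 8.56% and 31.1%, and Hnrnph3 1.13% and 4.78%, with overlapping rows. These shares are tied as well, since the high ES share of Hnrnpf lowers the others, and overlap was not counted over all genes.

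**Figure D3:**
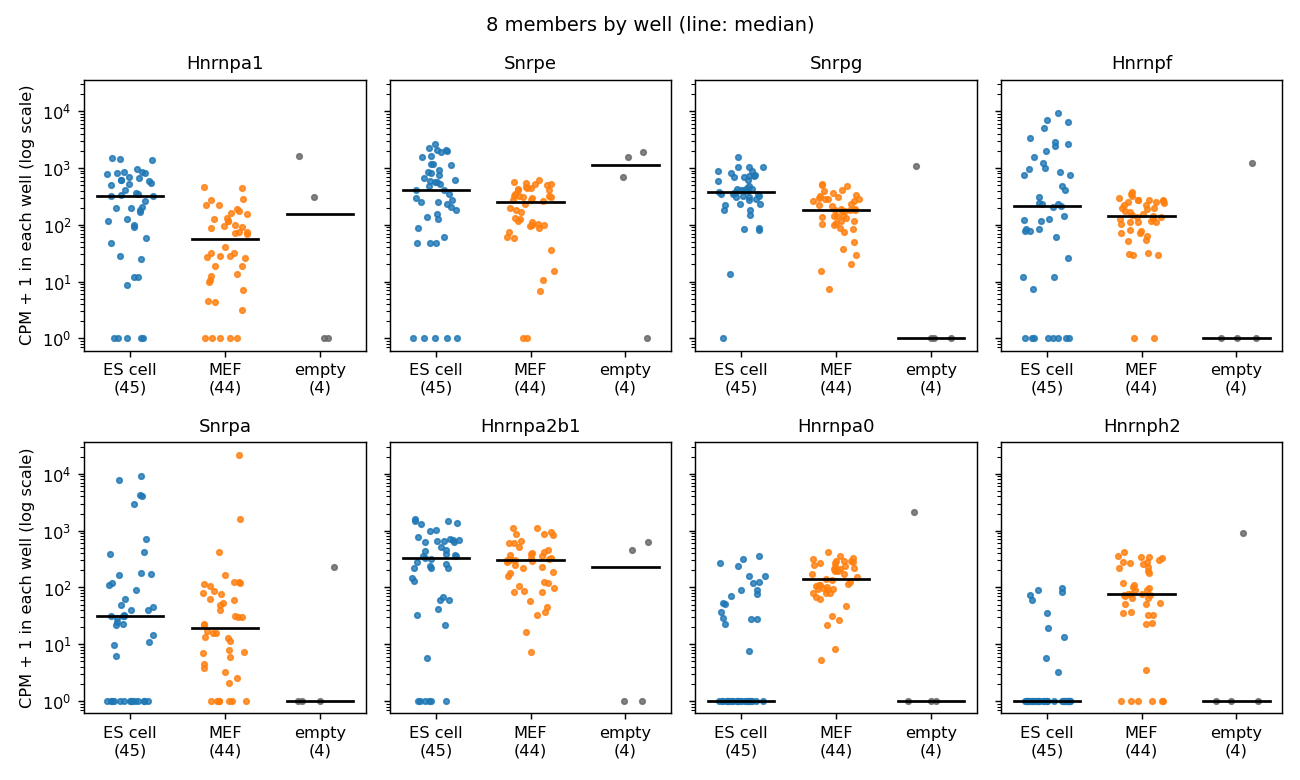
CPM plus 1 on a log scale in each of 45 ES cells, 44 MEFs and 4 empty wells for 8 members; lines are medians. Snrpg is even across cells, Hnrnpf and Snrpa reach above 1000 CPM in a minority of ES cells, and Hnrnpa0 and Hnrnph2 are at 0 in most ES cells; empty wells hold 236 to 4662 gene reads, so 1 read there is worth at least 214.5 CPM.

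The remaining hnRNPs were mixed. Hnrnpc, which packages nascent transcripts, had 230 and 157 CPM, at 2.09 (SD 0.88), and stood above the median gene in 8 of 8 plate rows. Hnrnpk, a KH-domain protein, had 179 and 192 CPM, at 1.44 (SD 0.82). Hnrnpu, a nuclear scaffold protein, was higher in MEFs by CPM, 114 against 310, and close to the median gene at 0.09 (SD 0.85). Over the 7 genes of the K, L, M and U families the median was 0.37 (SD 0.69). Of them 2 were at least 2-fold above and 1 below, where 33.4% and 35.1% of all genes were. Hnrpll, known for regulating splicing in lymphocytes, had 20.2 and 63.6 CPM, at -0.12 (SD 2.40).

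The SR proteins were split. Of 9 measured genes, 5 were above the median gene by 2-fold or more and 1, Srsf4, below it by as much, with a median of 1.13 (SD 0.58). Srsf3, the smallest SR protein and an mRNA export adaptor, gave 0, 155 and 764 CPM in ES wells and 0, 69.3 and 422 CPM in MEF wells. Its median ES cell was above its median MEF, with wide overlap. The sums of 231 and 127 CPM gave a relative log2 ratio of 2.40 (SD 1.11), or 2.28 after thinning. Srsf7, a close relative of Srsf3, had 125 and 49.6 CPM, at 2.87 (SD 1.94). Srsf5 was the most abundant by CPM in both types, with 421 and 253 CPM, at 2.28 (SD 1.48).

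Srsf1, the founding SR protein, owed much of its size to 1 cell. Its sums were 253 and 130 CPM, at 2.51 (SD 1.20), but ES cell replicate 47 held 59.6% of its ES reads. Without that well the relative log2 ratio was 1.35. Srsf1 was above the median gene in 8 of 8 plate rows, and its CPM was higher in ES cells in 5 of 8. Its median well stood at 23.3 CPM in ES cells and at 57.8 CPM in MEFs, the opposite order from the sums. Srsf2, the SR protein SC35, had 40.8 and 90.3 CPM, at 0.40 (SD 0.93).

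The SR-related genes were the lowest group, with a median of 0.15 (SD 0.93), 2 of 10 at least 2-fold above and 2 below, and 7 at least 2-fold higher in MEFs by CPM, where 59.1% of all genes were. Srsf8 (Sfswap), a regulator that acts on its own pre-mRNA, was detected in 5 of 45 ES wells and in 26 of 44 MEF wells. Its sums of 2.64 CPM (1.67 to 3.96) and 29.01 (27.3 to 30.9) gave -1.92 (SD 1.25), the lowest of all members. Srsf8 was below the median gene in 7 of 8 plate rows, and higher in MEFs by CPM in 8 of 8. Only 23 ES reads stand behind it. Srsf11 had 43.7 and 103 CPM, at 0.30 (SD 2.69). The row Srsf12 (Srek1) had 10.4 and 46.9 CPM, at -0.63 (SD 1.55), which was 0.11 in plate rows A to D and -2.37 in rows E to H.

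SF3a and SF3b, which hold the branch point in the U2 snRNP, stayed between these 2 snRNP groups (Sm ring, U1 and U2) and the SR-related genes. The median of the 8 subunits was 0.78 (SD 0.78). Of them 2 were at least 2-fold above and none 2-fold below, where 33.4% and 35.1% of all genes were. Sf3b1, the largest subunit, had 103 and 144 CPM, at 1.06 (SD 1.91). Its wells gave 0, 35.02 and 550 CPM in ES cells and 0, 129 and 554 CPM in MEFs, so the ranges coincided while the median was higher in MEFs. Sf3b5, the smallest, had 115 and 182 CPM, at 0.87 (SD 1.11). Sf3b4 had 16.97 and 72.8 CPM, at -0.56 (SD 2.55). Sf3a1 had 6.42 and 33.6 CPM, at -0.85 (SD 0.75), with MEFs higher by CPM in 8 of 8 plate rows. Relative to the median gene it was below in 5 of 8.

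The threshold of 2-fold cut through a continuous range. Just inside it above the median gene was Sf3b1 at 1.06, and just outside was Hnrnph3 at 0.92. Below, Srsf14 at -1.03 was the last inside, and Sf3a1 at -0.85 was the first outside.

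Much of the ES signal sat in few cells, for the members as for other genes. For 10 of 58 members at least 50% of the ES reads came from 1 well, and for 33 at least 25%, where in MEFs the counts were 2 and 7. Of all genes with 100 reads, 42.5% and 79.4% passed these limits in ES cells and 10.7% and 37.8% in MEFs, so the members were not more concentrated than other genes, and ES wells were the shallower ones. The median member drew 26.3% of its ES reads and 13.4% of its MEF reads from its highest well. ES cell replicate 47 was the highest well for 15 of the 58 members. It held 6.97% of the ES gene reads and 14.1% of the ES member reads. Without it, the number of members higher in ES cells by 2-fold or more in CPM was 9, in place of 11, and the median relative ratio was 1.01. Without each gene's own highest well the count was 7. Srsf7, Snrpd3, Snrpb2 and Snrpc fell under 2-fold, with log2 CPM ratios of 0.90, 0.80, 0.41 and 0.88.

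**Figure D4:**
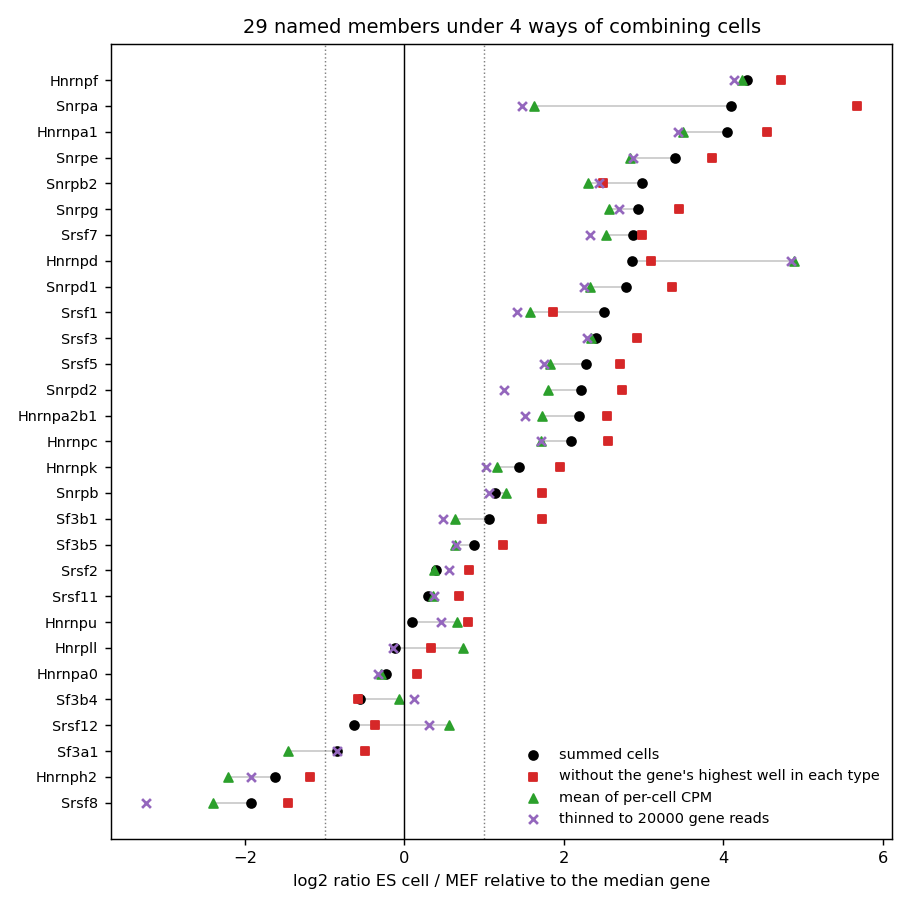
Relative log2 ratio of ES cell to MEF for the 29 members named by rule, with cells summed, without the gene's highest well in each type, as the mean of per-cell CPM, and thinned to 20000 gene reads. The median gene was recomputed under each setting. Snrpa moves from 4.09 to 1.48 after thinning and Hnrnpd from 2.86 to 4.89 with per-cell means, while Hnrnpf, Hnrnpa1, Snrpe and Snrpg stay above 2.

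Short transcripts tended to stand higher in ES cells, among the members as among all genes. Spearman's rho between transcript length and the relative ratio was -0.32 over the 58 members and -0.15 over 11054 genes, as a description across genes, which share the same cells and libraries. The 8 members under 1000 bases had a median of 2.64, with 6 of 8 at least 2-fold above. All 833 genes of that length had a median of 1.10, with 51.7% at least 2-fold above. Of these 8 members 6 are Sm ring genes, so length and role overlap. The 3 longer U1 and U2 snRNP genes had a median of 2.98, and the 7 A/B hnRNP genes, all over 1000 bases, 1.78. The part of length in the role differences was not tested.

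**Figure D5:**
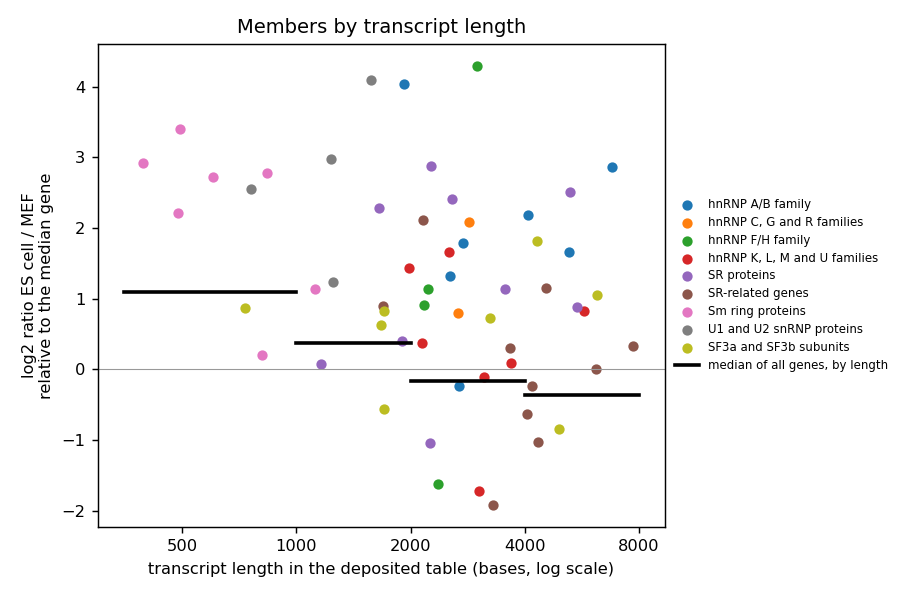
Relative log2 ratio of ES cell to MEF against transcript length in bases (log scale) for the 58 members, coloured by role; black lines are the medians of all genes in 4 length ranges, from 1.10 under 1000 bases to -0.36 at 4000 or more. Sm ring genes are short and mostly above their length range's median, and longer members lie on both sides.

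The other splicing genes were read from 9 lists made for comparison. Over the 145 measured genes, 72 exceeded the median gene by 2-fold or more and 17 lay below it by as much, with a median of 1.00 (SD 0.25). The LSm proteins, which form the ring on U6 RNA and on decaying mRNAs, lay high as well: 7 of 9 were at least 2-fold above and none below, with a median of 1.97. Their median length was 942 bases, and 51.7% of all genes under 1000 bases were at least 2-fold above. Length and list therefore overlap here as well. Lsm7 had 580 and 163 CPM, at 3.37 (SD 2.35). Spliceosomal helicases had 9 of 12 above and 1 below, with a median of 1.57. Dhx16, a helicase that acts in spliceosome activation, stood at 220 CPM in ES cells and at 18.4 CPM in MEFs, at 5.12 (SD 1.81). Genes of the PRPF and Prp19 complexes had 14 of 26 above and 3 below, and Prpf4, of the tri-snRNP, had 78.3 and 14.96 CPM, at 3.93 (SD 2.88).

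Among the other lists, genes of 3′ splice site recognition had 5 of 11 above and none below, among them U2af1, the small U2AF subunit, with 178 and 58.8 CPM (3.14, SD 1.61). U2af2, the large subunit, had 39.4 and 125 CPM (-0.13, SD 1.54). snRNP assembly genes had 8 of 15 above and 1 below, the latter Phax, an snRNA export adaptor, with 10.6 and 97.0 CPM (-1.66, SD 3.17). The remaining snRNP proteins had 7 of 17 above and 2 below, the SR protein kinases and matrix proteins 8 of 13 and 1, and the exon junction complex and export genes 5 of 15 and 2. The last list's share above is that of all genes, 33.4%. The shares above for 3′ splice site recognition and the remaining snRNP proteins were not far over it. Clk3, a kinase of SR proteins, had 2.52 and 29.5 CPM (-2.01, SD 1.70).

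Alternative splicing regulators, many of them specific to tissues, had a median of 0.06 (SD 0.32), with 9 of 27 at least 2-fold above and 7 below, shares near the 33.4% and 35.1% of all genes. Among the 7 below were Mbnl1 and Mbnl2, muscleblind proteins known to favour splice patterns of differentiated cells. Mbnl1 had 22.02 CPM (19.01 to 25.4) in ES cells and 357 (351 to 363) in MEFs, 16.2-fold, at -2.48 (SD 1.21), above the median gene in 0 of 8 plate rows. Mbnl1 was detected in 20 of 45 ES wells and in 43 of 44 MEF wells. Mbnl2 had 34.9 and 269 CPM, at -1.41 (SD 1.87). Tra2b, an SR-like activator of exon inclusion, lay on the other side with 247 and 52.3 CPM, at 3.78 (SD 1.45), and 42.5% of its ES reads came from 1 well.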

How the data were processed

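The deposited table gives the authors' read counts per gene row and well; per the labels' protocols the libraries capture 5′ ends and keep the strand. Alignment used Bowtie, per the submitters' processing notes. Its version, the genome build and the annotation are not given in the sources used here. The minimum and maximum exon hits of a row, also deposited by the authors, gave the share of uniquely mapped reads, and the deposited transcript length was used as it stands. From the counts, reads were summed over wells of a type with at least 10000 gene reads (rows of repeats and spike-ins excluded), converted to CPM and compared as log2 ratios for genes with at least 100 reads. The relative ratio subtracts the median over all such genes. No test was made, because each type is 1 culture. Where no read stood in 1 type a floor of 3 reads was used. The code was tested on simulated data. Python 3.11.15, numpy 2.4.6, pandas 2.3.3, scipy 1.17.1 and matplotlib 3.10.9 were used.

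The members and gene lists were chosen with earlier results of these data known. Named with full values were 15 well-known members, the 8 members at each end of the log2 ratio after adding 10 CPM (100 reads, detected in at least 25% of the higher type's cells), and in each role the member highest in each type, 29 in all; from each other list, 3 genes by the same ratio. Others named (Srsf13b, Snrpf, Hnrnph1, Hnrnph3, Hnrnpa3, Srsf14, Srsf4, Snrpd3 and Snrpc) were named after their values were seen. So was Snrnp70, from the list of other snRNP proteins. Alternatives covered scaling, filters, depth, plate rows, single wells and background. 3 ES wells were left out for depth.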

Additional observations from a re-analysis of the deposited data

Results flagged for a closer look

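Among the 4 negative control wells, replicate 96 held a read of 0 members, while each of the other 3 held reads of 9 members, which made it stand apart from a group of 4 by its gap. That well had 236 gene reads in all. The rule used picks out about 5% of groups by chance.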

How the results depend on the processing

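Of the 6 main results (the members' median CPM ratio and median relative ratio, both counts past 2-fold and both read shares), 101 of 114 values under up to 22 alternative settings moved by less than 1 SD over plate rows, or for a count by at most 1.5 times. With the median of ratios, the number of members 2-fold or more higher in ES cells by CPM was 4. Under spike-in scaling the median CPM log2 ratio was -5.01, the ES count was 0 and the MEF count 58. With ribosomal protein genes left out of the totals, the median CPM log2 ratio was 0.20, so its sign changed, the counts were 18 and 11, and the ES share was 1.74%. From the mean of per-cell CPM the ES count was 6. In plate rows E to H the median relative ratio was 1.65, and with 10 CPM added it was 0.29. Chosen after seeing the data were the wells left out singly, the 12 wells left out for their markers and the share without 2 genes. Without each gene's highest well the ES count was 7. Without Snrpa and Hnrnpf the ES share was 0.675%. For the 29 named members, 597 of 608 values moved by less than 1 SD over plate rows, which is often over 1 log2 unit, and 11 moved further, with no value of 2-fold or more changing sign. The cause of these shifts was not tested beyond what each setting changes by construction. No paired analysis was possible because ES cell and MEF wells share no replicate numbers in the labels. Depth limits the lowest members: Srsf13b, with 0 of 8720507 ES gene reads, could not be compared.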

Other observations

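The table also counts reads on repeat rows named after the spliceosomal RNAs. Whether these reads came from the working RNAs or from repeat copies of them was not tested. The members' Sm proteins clasp U1, U2, U4 and U5, while U6 carries the LSm ring. Scaled to 1000000 gene reads, with both strands added, U6 rows had 271 in ES cells (95% Poisson interval 261 to 283) and 160 in MEFs (156 to 164). Reads fell in 37 of 45 ES cells and 41 of 44 MEFs. U2 rows had 75.8 and 56.9, and in ES cells 56.6% of the U2 reads came from 1 well. U1 rows had 1.15 and 7.59, U4 rows 4.24 and 3.73, and U5 rows 5.50 and 10.98. All U5 reads of the ES cells came from 1 well. Negative controls had 7 U6 reads, all in 1 well, against 2367 in the ES cells and 5616 in the MEFs. On the same scale these 7 reads are 559 (225 to 1151), above both cell types. That rate divides by only 12527 gene reads, so it does not measure the background in wells with cells. The negative controls had 0 reads on the rows of the other 4 RNAs. At 12527 gene reads this allows up to 294 on the same scale by the exact Poisson limit.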
